A study of Mus musculus with 8 samples.

Results

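The genes described here are the 4 Id genes (Id1, Id2, Id3 and Id4) and 6 genes of bone morphogenetic protein (BMP) signalling: the ligands Bmp2 and Bmp4, the secreted antagonist Grem1, the receptor Bmpr2 and the inhibitory SMADs Smad6 and Smad7. They are 10 of 12362 genes with a tested probe set on Affymetrix arrays of mouse ankle joint. A member's probe sets are those annotated to that gene alone: 17 in all, of which 14 passed a filter on dim values, with at least 1 for each of the 10 genes. The members were selected on pathway membership with the values of these 8 arrays already known, and all comparisons count as used in that choice. Their levels and differences are therefore a description, with standard errors and 95% intervals and without a p-value for any member; counts of members past a threshold stand only beside the share of all genes past it. Tests are given for other genes of the pathway, whose lists were also chosen with earlier results of these data known.

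Joints came from mice 5 months of age in 3 groups. The first carried a human TNFa transgene (hTNF) and was labelled null for sphingosine kinase 1 (Sphk1), the kinase that makes sphingosine 1-phosphate (3 arrays, called Sphk1-null hTNF below). The second carried the transgene with normal Sphk1 (3 arrays, hTNF). The third was wild type, with neither change (2 arrays). Both transgenic groups share the transgene, whose promoter, line and strain are not given in the sources used here. A mouse is named as the source of each array, but nothing names separate litters or RNA preparations. The errors and p-values reflect how far arrays lie apart within their groups, pooled over all 3 groups. Part of that spread may be technical.

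BMPs are secreted dimers that bind type I and type II receptor kinases. The type I receptor phosphorylates Smad1, Smad5 and Smad9, which enter the nucleus with Smad4 and switch on targets that include Id1, Id2, Id3, Smad6 and Smad7. Id proteins have a helix-loop-helix domain but no basic region: they dimerise with E proteins and keep them, and their tissue-specific partners, from binding DNA. In joints and bone the pathway is known for its part in forming cartilage, bone and joint cavities.

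Some libraries stood apart. Sphk1 read 9.94 to 10.22 log2 on the arrays labelled Sphk1-null hTNF, against 8.28 to 8.65 on the hTNF arrays and 7.16 to 7.25 on the wild-type arrays. By this probe set the targeted transcript was highest in the group labelled null. A second Sphk1 probe set, below the filter on dim values, overlapped between the transgenic groups (6.33 to 6.68 in Sphk1-null hTNF joints and 6.5 to 6.74 in hTNF joints). No source used here says where the probes lie relative to the inactivated part, so this level does not check the label, and every direction between the transgenic groups carries that limit. On 3 arrays, Sphk1-null hTNF replicate 1, hTNF replicate 1 and wild-type replicate 2, both Xist and the Y-linked gene Eif2s3y were present. Xist read 11.19 to 13.09 log2 and Eif2s3y 6.60 to 9.14, although the labels name a single mouse for each array. Whether RNA of several animals was combined cannot be told from the labels. Wild-type replicate 1 and hTNF replicate 2 had low Xist (7.45 and 7.29) with Eif2s3y at 8.86 and 8.75. Sphk1-null hTNF replicates 2 and 3 and hTNF replicate 3 had Xist at 12.89 to 13.16 and Eif2s3y at 3.46 to 3.81. Sex-linked signal was thus not balanced between the groups, and its part in the differences was not tested. The average over 8 keratinocyte genes of skin ran from 7.18 to 10.71 in Sphk1-null hTNF joints, from 7.02 to 12.07 in hTNF joints and from 7.84 to 8.89 in wild-type joints. The mean of 6 cartilage genes lay between 9.77 and 10.86 on every array, and that of 6 osteoblast and osteocyte genes between 9.22 and 9.92. Matn3 and Bglap of these lists had no tested probe set. All values are log2 summaries, with array medians of 6.84 to 6.89, and levels are compared only within a probe set.

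The proximal promoters of 3 Id genes are shown because these genes differed in direction between hTNF and wild-type joints: Id4 and Id3 were lower and Id2 was higher. The sequences are from RefSeq on GRCm38.p6 and run from 250 bases before to 50 bases after the gene's start. Capitals mark GGCGCC, a GC-rich sequence known to bind Smad1 and Smad5, and CANNTG, the E-box bound by the dimers that Id proteins block.
Id4, chr13:48260866-48261165, plus strand: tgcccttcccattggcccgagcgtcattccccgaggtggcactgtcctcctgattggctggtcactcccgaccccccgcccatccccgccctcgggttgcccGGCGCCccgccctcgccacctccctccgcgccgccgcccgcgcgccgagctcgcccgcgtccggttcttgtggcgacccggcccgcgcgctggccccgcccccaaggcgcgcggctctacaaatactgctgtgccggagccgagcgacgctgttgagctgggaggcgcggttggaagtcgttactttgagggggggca
Id3, chr4:136143572-136143871, plus strand: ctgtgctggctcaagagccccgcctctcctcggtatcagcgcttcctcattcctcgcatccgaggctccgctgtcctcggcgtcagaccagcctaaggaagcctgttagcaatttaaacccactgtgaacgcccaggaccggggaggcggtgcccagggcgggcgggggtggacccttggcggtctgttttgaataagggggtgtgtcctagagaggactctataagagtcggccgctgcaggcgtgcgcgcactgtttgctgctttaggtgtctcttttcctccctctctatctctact
Id2, chr12:25096043-25096342, minus strand: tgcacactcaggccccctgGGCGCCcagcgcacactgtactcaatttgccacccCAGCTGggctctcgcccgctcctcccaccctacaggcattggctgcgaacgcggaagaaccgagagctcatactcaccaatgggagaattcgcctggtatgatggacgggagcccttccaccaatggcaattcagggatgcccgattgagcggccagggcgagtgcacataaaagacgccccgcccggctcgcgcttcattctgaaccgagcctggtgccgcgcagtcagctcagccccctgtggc

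The motif search covered the promoters of 7 members: Bmp4, Bmpr2, Grem1, Id2, Id3, Id4 and Smad6. Id1 and Bmp2 had no promoter entry, and Smad7, on chromosome 18, was left out of the search. GGCGCC occurred once each in Id4 (at -148 from the start), Id2 (-231), Bmpr2 (-105) and Grem1 (-78), and in 11.9% of all 32851 promoters of the same length. CANNTG, searched on both strands as all motifs were, occurred in Id2 (1 match), Bmp4 (3) and Smad6 (1), and in 72.3% of all promoters; the Id2 match, at -196, did not overlap the other motif. The core SMAD-binding sequence GTCT was searched too and is in 88% of all promoters, so it is not marked. Neither TATAAA (13.6% of all promoters) nor the NF-kB consensus (8.46%) had a match in the 7 windows. GC content ran from 59.3% in Bmpr2 to 73.3% in Id4, above the median of 52.7% over all promoters. The 2 genes with opposite directions, Id4 and Id2, both held GGCGCC.

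Among the Id genes, Id4 and Id1 were clearly lower in hTNF joints, Id3 slightly lower and Id2 higher. Id4, which is expressed in neural and mesenchymal cells and takes part in osteoblast and fat cell differentiation, read 9.16, 8.89 and 8.87 log2 in hTNF joints, against 10.53 and 10.49 in wild-type joints. All hTNF arrays lay more than 1 log2 below both wild-type arrays. The difference was -1.54 ± 0.16 log2 (SE, 3 arrays against 2; 95% interval -1.89 to -1.19), a 2.90-fold lower value. The other Id4 probe sets differed by -1.48 ± 0.12 and -1.72 ± 0.20, so all 3 gave the same picture.

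Id1, the most widely used readout of BMP signalling, read 9.49, 9.55 and 9.31 log2 in hTNF joints, against 10.23 and 10.09 in wild-type joints, a difference of -0.71 ± 0.11 (95% interval -0.96 to -0.46). Id3, which shares many tissues with Id1, read 10.07, 10.22 and 10.13 in hTNF joints, against 10.40 and 10.49 in wild-type joints, a difference of -0.31 ± 0.10 (95% interval -0.53 to -0.08). The groups did not overlap for either gene. Id2, known for its part in lymphoid and innate lymphoid cell development, went the other way. It read 10.27, 9.81 and 10.12 in hTNF joints, against 9.23 and 9.55 in wild-type joints, a difference of 0.68 ± 0.18 (95% interval 0.28 to 1.07). Its second tested probe set differed by 0.91 ± 0.18, and the lowest hTNF array lay above both wild-type arrays for both probe sets.

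**Figure D1:**
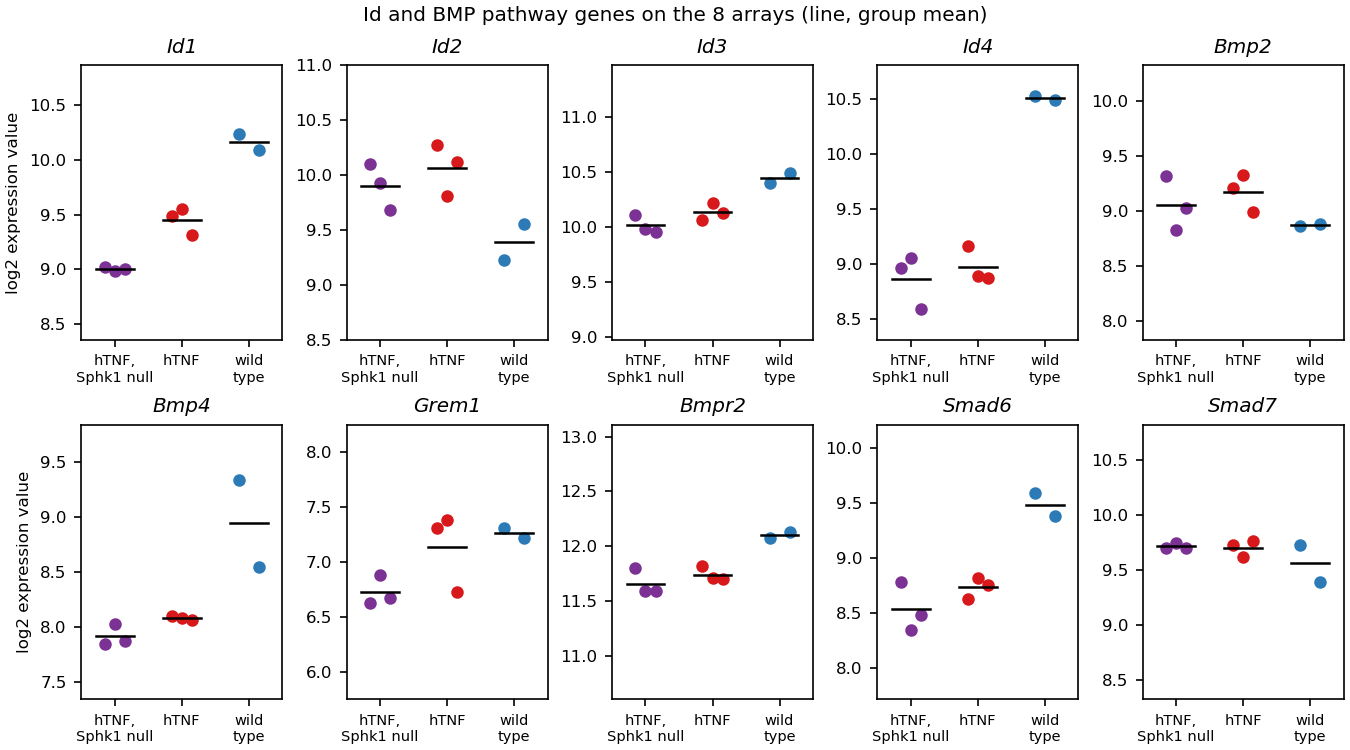
Log2 expression values (y axis) of the brightest tested probe set of each of the 10 genes, by group (x axis); each point is 1 array, the line is the group mean, and every panel spans 2.5 log2. Id1 fell in 3 separate levels, with 8.99 to 9.02 in Sphk1-null hTNF joints, 9.31 to 9.55 in hTNF joints and 10.09 to 10.23 in wild-type joints, while Id2 was highest in the transgenic joints.

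The ligands differed from each other. Bmp4, which takes part in mesoderm, limb and skeletal development, read 8.10, 8.08 and 8.06 log2 in hTNF joints, against 9.34 and 8.55 in wild-type joints. The hTNF arrays were within 0.04 of each other, while the wild-type arrays were 0.79 apart, so the size of the difference, -0.87 ± 0.20 (95% interval -1.31 to -0.42), rests on wild-type replicate 1: without that array it was -0.47, and without wild-type replicate 2 it was -1.26. Bmp2, an inducer of bone and cartilage formation, read 9.21, 9.33 and 8.99 in hTNF joints, against 8.87 and 8.88 in wild-type joints. Its groups did not overlap, but the 95% interval of the difference (0.30 ± 0.16) ran from -0.06 to 0.66.

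Grem1, which binds BMPs and keeps them from their receptors, was dim, and its groups overlapped. It read 7.31, 7.38 and 6.72 log2 in hTNF joints, against 7.31 and 7.22 in wild-type joints, with a difference of -0.13 ± 0.20 (95% interval -0.59 to 0.33). Its direction depended on 1 array: without hTNF replicate 3 the difference was 0.08.

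Bmpr2, the type II receptor whose mutations cause heritable pulmonary hypertension in humans, read 11.82, 11.71 and 11.70 in hTNF joints, against 12.08 and 12.13 in wild-type joints. The groups were apart by a small step of -0.36 ± 0.09 (95% interval -0.57 to -0.15). A second, dim Bmpr2 probe set overlapped between the groups, with a difference of -0.14 ± 0.17.

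The 2 inhibitory SMADs parted. Smad6, which preferentially blocks BMP type I receptors, read 8.63, 8.82 and 8.75 in hTNF joints, against 9.59 and 9.38 in wild-type joints, a difference of -0.75 ± 0.15 (95% interval -1.09 to -0.42). No hTNF array reached a wild-type array. Smad7, which blocks both TGF-beta and BMP receptors, read 9.73, 9.62 and 9.76 in hTNF joints, against 9.73 and 9.39 in wild-type joints, and the groups overlapped (0.14 ± 0.12, 95% interval -0.13 to 0.42). Without wild-type replicate 2 the Smad7 difference was -0.03, and without the 3 arrays of mixed sex-linked signal it was -0.04.

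**Figure D2:**
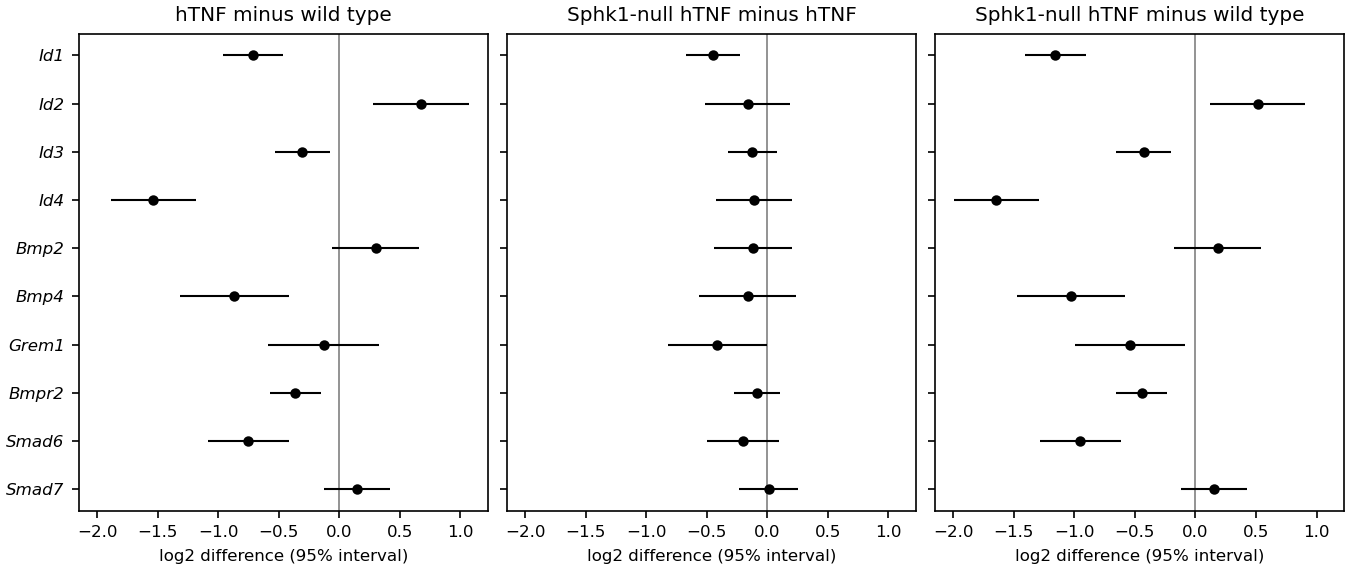
Log2 difference between groups (x axis) for the 10 genes (y axis), with 95% intervals from the limma fit, in the 3 comparisons. In the left panel 6 intervals lie below 0 and that of Id2 above it; in the middle panel those of Id1 and Grem1 lie below 0.

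As counts, limma called 6 of the 10 genes lower (Id1, Id3, Id4, Bmp4, Smad6 and Bmpr2) and 1 higher (Id2) in hTNF against wild type, at a Benjamini-Hochberg adjusted p under 0.05 over all probe sets. Over all tested genes, 19.6% were called lower and 16.5% higher, and over all probe sets 33% were called in either direction; as the comparison was known when the members were picked, nothing is read from their count. Of the 10 genes, 8 had groups without overlap, against 63.7% of all genes. The members' median difference was -0.33 log2, and that of all tested genes -0.02. Without hTNF replicate 3 the count called was 4, with Id2, Id3 and Bmpr2 lost. With the skin level as a covariate it was 6, with Id3 lost. Member calls also ended without wild-type replicate 1 and without the 3 arrays of mixed sex-linked signal, fits that each left 1 wild-type array. No share of all genes is set beside the counts of these fits, so nothing is read from them.

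Between the transgenic groups, Id1 was the member that differed most for its spread. It read 9.02, 8.99 and 9.0 log2 in Sphk1-null hTNF joints, against 9.49, 9.55 and 9.31 in hTNF joints, a difference of -0.45 ± 0.10 (SE, 3 arrays against 3; 95% interval -0.67 to -0.22), or 1.36-fold lower. The Sphk1-null hTNF arrays lay within 0.03 of each other and below all hTNF arrays. Grem1 read 6.62, 6.88 and 6.67 in Sphk1-null hTNF joints, against 7.31, 7.38 and 6.72 in hTNF joints, a difference of -0.41 ± 0.18 (95% interval -0.82 to -0.0046). Its groups overlapped, since hTNF replicate 3 was as low as the Sphk1-null hTNF arrays; without that array the difference was -0.62.

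For Bmp4 the groups also did not overlap, with 7.85, 8.03 and 7.87 log2 in Sphk1-null hTNF joints, against 8.10, 8.08 and 8.06 in hTNF joints. The difference (-0.16 ± 0.18) nevertheless had an interval from -0.57 to 0.24. Its error pools all 3 groups, including the wild-type arrays, which are not part of this comparison. The SD of Bmp4 was 0.10 in Sphk1-null hTNF joints, 0.02 in hTNF joints and 0.56 in wild-type joints. One of the 3 Id4 probe sets read 8.42, 8.15 and 8.24 in Sphk1-null hTNF joints, against 8.75, 8.66 and 8.51 in hTNF joints (-0.37 ± 0.11), while the brightest one differed by -0.11 ± 0.14. The probe sets of Id4 thus did not give the same picture here. The intervals of Id2 (-0.52 to 0.19), Id3 (-0.33 to 0.08), Bmp2 (-0.44 to 0.20), Smad6 (-0.50 to 0.10), Smad7 (-0.23 to 0.26) and Bmpr2 (-0.27 to 0.11) all included 0. Differences of any size inside these intervals remain possible with 3 arrays a group.

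Limma called 0 of the 10 genes between the transgenic groups, and 2 (Id1 and Grem1) had an unadjusted p under 0.05, as had 6.27% of all genes. Over all genes, 0% were called lower and 0.0162% higher, and 0.00829% of probe sets were called. Of the 10 members, 2 (Id1 and Bmp4) had groups without overlap, against 10% of all genes. The sign was negative in 9 of the 10 members, as in 6806 of all 12362 genes. The members' median was -0.14 log2 and that of all genes -0.02.

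**Figure D3:**
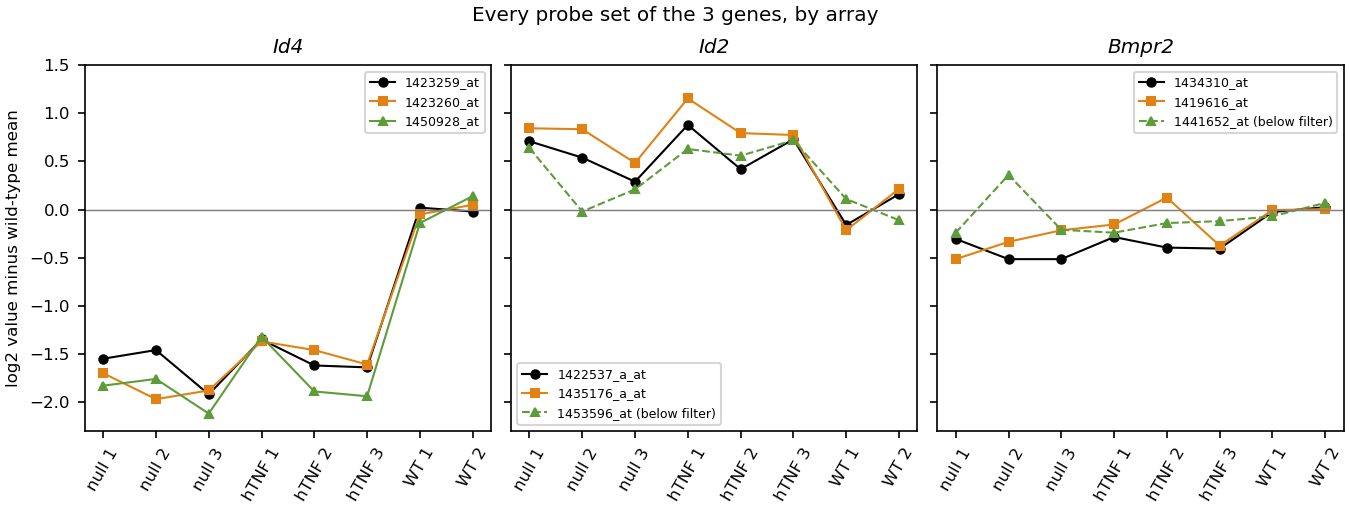
Log2 value minus the wild-type mean (y axis) on each of the 8 arrays (x axis) for every probe set of Id4, Id2 and Bmpr2; dashed lines are probe sets below the filter on dim values. The 3 Id4 probe sets run together, more than 1 log2 below the wild-type mean on all transgenic arrays, the tested Id2 probe sets lie above it on all 6, and for Bmpr2 the dim tested probe set overlaps between hTNF and wild-type arrays while the bright one does not.

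Against wild type, Sphk1-null hTNF joints differed in the same direction as hTNF joints in all 10 members. The wild-type arrays are shared with the hTNF comparison, so the values stand side by side and do not support each other. Id4 was -1.64 ± 0.16 log2 apart (3 arrays against 2), Id1 -1.16 ± 0.11, Bmp4 -1.03 ± 0.20 and Smad6 -0.95 ± 0.15. Smaller differences were seen in Grem1 (-0.54 ± 0.20), Bmpr2 (-0.45 ± 0.09), Id3 (-0.43 ± 0.10) and, in the other direction, Id2 (0.51 ± 0.18). Bmp2 (0.19 ± 0.16) and Smad7 (0.16 ± 0.12) overlapped between the groups. Limma called 6 members lower and 1 higher, against 23.8% and 19.1% of all genes and 39% of all probe sets, and 8 of the 10 members had groups without overlap, against 60.8% of all genes. Without wild-type replicate 1 the Bmp4 difference was -0.63. As in the hTNF comparison, nothing is read from the members' calls or from how long they lasted. The call of Id2 ended in 8 of 18 alternatives, among them the replicate block, the skin covariate, no filter and no intensity trend, and leaving out wild-type replicate 1, hTNF replicate 3 or Sphk1-null hTNF replicate 1 or 2; that of Id3 ended without wild-type replicate 2.

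The members varied by very different amounts over the 8 arrays. The range from the lowest to the highest array was 1.94 log2 in Id4, 1.49 in Bmp4, 1.25 in Smad6, 1.24 in Id1 and 1.04 in Id2, and 0.76 or less in the others, with 0.37 in Smad7 as the smallest. When each profile was centred on its own mean, Id3 and Bmpr2 were the closest pair of members, with a root mean square difference of 0.07 log2 over the 8 arrays, followed by Id1 and Smad6 (0.17). These are descriptions over arrays that share the group structure.

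Among all other tested genes, the profile closest to that of Id1 was Dlx5 (root mean square difference 0.08 log2 over the 8 arrays), a homeobox gene of osteoblasts and cartilage that responds to BMPs. Dlx5 read 8.74, 8.65 and 8.74 log2 in Sphk1-null hTNF joints, 9.13, 9.19 and 8.86 in hTNF joints and 10.05 and 9.77 in wild-type joints, in 3 levels that did not overlap. Next to Id1 followed Mcts2 (0.09) and Alkbh7 (0.10). Closest to Id4 were the neuropeptide receptor gene Adcyap1r1 (0.11), the potassium channel gene Kcnc4 (0.11) and the growth factor gene Fgf1 (0.12). For Bmp4 they were Eps8l2 (0.07), the hedgehog ligand Ihh (0.09) and Pitpnm3 (0.10), which all differed between the wild-type arrays as Bmp4 did. Camk2g, Maged2 and Ppp1r13b were closest to Smad6 (0.04 to 0.05), and Idi1, Vrk1 and Ffar4 to Id2 (0.07 to 0.10). For Id3 the closest were Dctpp1, Slc6a7 and Ndufaf8 (0.03 to 0.04), and for Bmpr2 Psmb6, Pdcl3 and Mrps36 (0.02 to 0.03). For Bmp2 they were Ssr4, Mvb12a and Socs4 (0.06 to 0.07), and for Smad7 Ppfia4, Dync2h1 and Arv1 (0.05 to 0.06). Grem1 had no gene as close: Chac1, Rbm4b and Irx5 came nearest, at 0.13 to 0.18. A small value means less for members that varied little over the arrays, such as Smad7, Bmp2, Id3 and Bmpr2.

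Other genes of the pathway were tested from 6 lists holding 74 genes, of which 68 were named by the annotation and 55 had a tested probe set. In hTNF against wild type, 23 of the 55 were called lower and 4 higher, at a limma adjusted p under 0.05. Over all tested genes 19.6% were called lower and 16.5% higher. By sign alone, 39 of the 55 were lower and 16 higher, against 6428 and 5933 of all 12362 genes. The median was -0.27 log2 in the 55 and -0.02 in all tested genes. In the lists below, fell and rose mean called, and a gene that did not pass can still differ. By groups, 3 of 5 ligands fell. Bmp6, a ligand that also controls iron balance, read 8.35, 7.85 and 8.25 log2 in hTNF joints, against 9.40 and 9.54 in wild-type joints (-1.32 ± 0.16, limma adjusted p = 0.00033). Bmp5, known in mice from the short ear mutant, read 8.40, 8.39 and 7.92 in hTNF joints, against 9.54 and 9.47 in wild-type joints (-1.27 ± 0.21, limma adjusted p = 0.0015). Bmp8a fell by 0.63 (limma adjusted p = 0.00693). Bmp7 (-0.25 ± 0.21) and Gdf2 (0.04 ± 0.18) did not pass. The Bmp8a call ended without wild-type replicate 1 (adjusted p = 0.0837; 0.00395 to 0.0837 over the alternatives).

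Receptors and co-receptors fell in 6 of 10 and rose in 1. Hjv, hemojuvelin, a BMP co-receptor of skeletal muscle and liver, fell by 1.81 log2 (SE 0.27; limma adjusted p = 0.00105). The type II receptors Acvr2b (-0.87 ± 0.19, limma adjusted p = 0.00617) and Acvr2a (-0.74 ± 0.16, 0.0069), the type I receptors Bmpr1b (-0.79 ± 0.17, 0.00745) and Bmpr1a (-0.61 ± 0.11, 0.00316) and the co-receptor Rgmb (-0.49 ± 0.16, 0.0395) fell as well. The gene that rose was Acvrl1, a type I receptor of endothelial cells, with 8.20, 8.42 and 8.41 in hTNF joints, against 8.0 and 7.54 in wild-type joints (0.57 ± 0.17, 0.0311); Bmpr1a, Rgmb and Acvrl1 were named after their values were seen. With the mean of all probe sets, Acvr2b moved to -0.42 and Acvr2a to -0.40, and the Acvr2b call ended. Calls ended without wild-type replicate 1 for Acvr2b, Bmpr1b and Rgmb (-0.27), and without wild-type replicate 2 for Acvr2a and Acvrl1 (0.34). Acvrl1 also lost its call without hTNF replicate 2 or 3, without the 3 arrays of mixed sex-linked signal and with the mean of all probe sets, and Rgmb without any of the hTNF arrays, without Sphk1-null hTNF replicate 3, with no filter on dim probe sets and with the mean of all probe sets.

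Few signal transducers were called, though 7 of the 10 tested had hTNF and wild-type groups without overlap, against 63.7% of all genes. Of 10 SMADs and intracellular regulators, 1 fell and none rose: Bambi, a receptor without a kinase domain that dampens BMP and TGF-beta signalling, read 8.49, 8.69 and 8.48 log2 in hTNF joints, against 9.34 and 9.20 in wild-type joints (-0.72 ± 0.12, limma adjusted p = 0.00153). Smad1 (0.03 ± 0.15), Smad5 (-0.11 ± 0.10) and the shared Smad4 (-0.10 ± 0.12) did not pass. Against wild type, Sphk1-null hTNF joints also had higher Smurf1 (0.51 ± 0.14, limma adjusted p = 0.0168), a ubiquitin ligase for SMADs, and Ski (0.45 ± 0.12, 0.0139), a repressor of SMAD targets. Both of these calls ended without wild-type replicate 2, where Smurf1 differed by 0.33 and Ski by 0.30, and without the 3 arrays of mixed sex-linked signal.

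Secreted antagonists and modulators went both ways, with 5 of 11 lower and 2 higher. Fst, follistatin, which binds activins and some BMPs, read 8.56, 8.66 and 8.10 log2 in hTNF joints, against 10.11 and 10.06 in wild-type joints (-1.65 ± 0.25, limma adjusted p = 0.00114). Chrdl1, a chordin-like BMP antagonist, read 8.94, 8.67 and 8.80 in hTNF joints, against 10.10 and 10.48 in wild-type joints (-1.49 ± 0.17, limma adjusted p = 0.000244). The BMP and Wnt antagonist Sostdc1 (-1.25 ± 0.30, 0.011) and the osteocyte product Sost (-0.99 ± 0.28, 0.0239) fell too, as did Dand5, a DAN family antagonist (-0.60 ± 0.17, 0.0199). The 2 that rose, named after their values were seen, were Bmper (0.73 ± 0.18, 0.0141), a BMP-binding modulator of endothelial cells, and Nbl1 (0.59 ± 0.12, 0.00442), a BMP antagonist of the DAN family. Chrdl1 moved to -0.98 with the mean of all probe sets. The calls of Sostdc1, Sost and Dand5 ended without wild-type replicate 1 and that of Bmper without wild-type replicate 2; Sost also lost it without hTNF replicate 2 or 3 and moved to -1.56 without the 3 arrays of mixed sex-linked signal, and Dand5 without hTNF replicate 1 or 3. The call of Sost also ended with only the compared groups in the fit, and that of Dand5 with the replicate block.

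**Figure D4:**
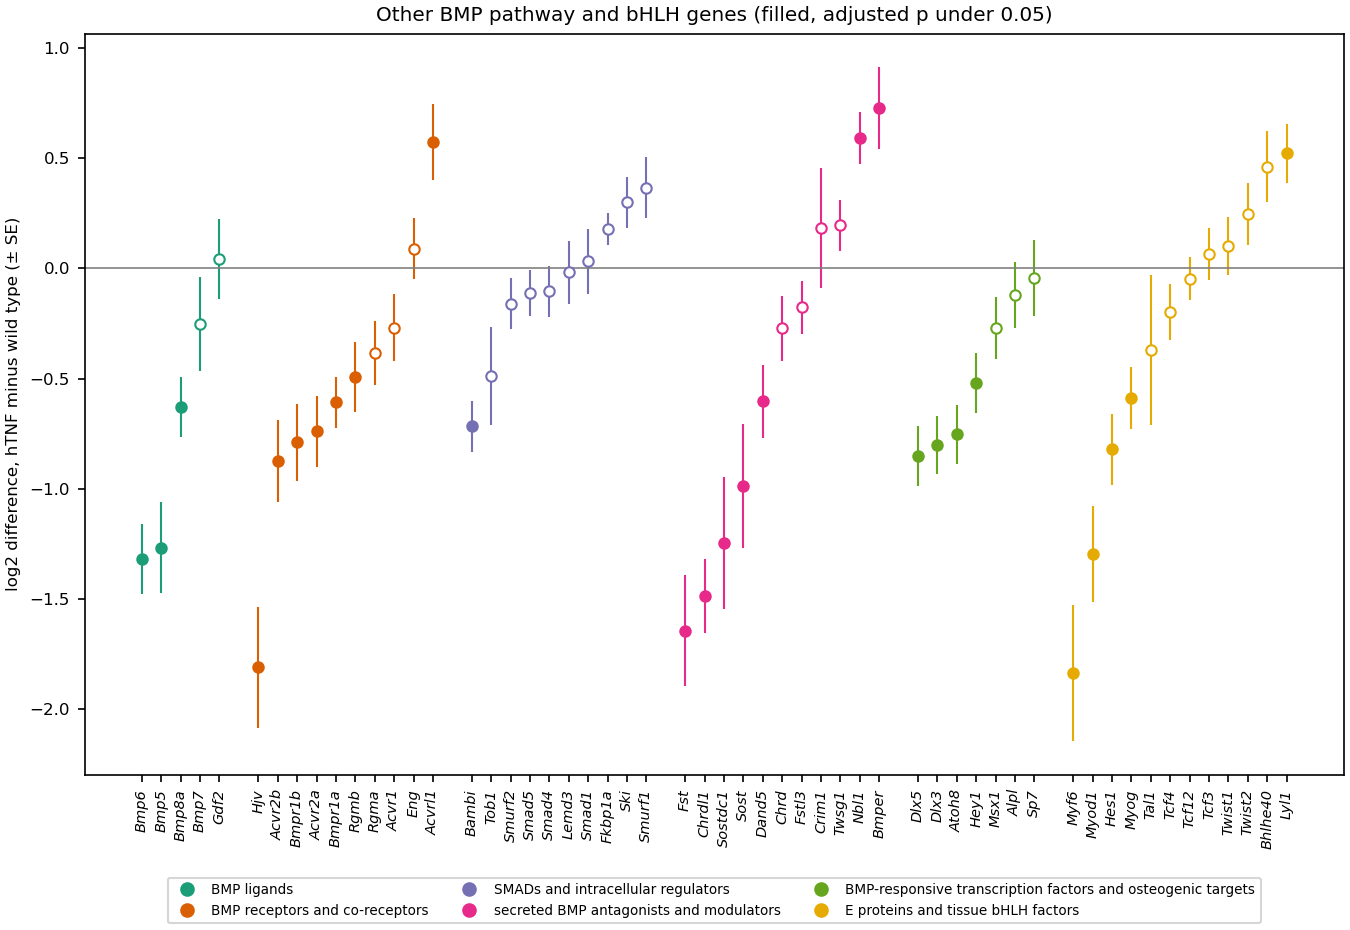
Log2 difference, hTNF minus wild type (y axis, ± SE), for 55 genes of the pathway that are not among the 10 members (x axis, grouped by list); filled points passed an adjusted p under 0.05. Filled points lie below 0 in every list, down to -1.84 for Myf6, and 4 lie above it (Acvrl1, Bmper, Nbl1 and Lyl1).

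BMP-responsive transcription factors fell in 4 of 7 and rose in none. Dlx5 fell by 0.85 (SE 0.14; limma adjusted p = 0.0014), its relative Dlx3 by 0.80 (SE 0.13; 0.00165), and Atoh8, a bHLH factor switched on by BMP signalling, by 0.75 (SE 0.13; 0.00224). Hey1, a target of both Notch and BMP signalling, fell by 0.52 (SE 0.14; 0.0162), a call that ended without wild-type replicate 1, wild-type replicate 2 or hTNF replicate 2. Alpl, the alkaline phosphatase of mineralising cells (-0.12 ± 0.15), and the osteoblast factor Sp7 (-0.05 ± 0.17) did not pass. Dlx3 moved to -0.52 with the mean of all probe sets.

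Among the partners of Id proteins, none of the E proteins Tcf3 (0.07 ± 0.12), Tcf4 (-0.20 ± 0.13) and Tcf12 (-0.05 ± 0.10) passed. Of 12 E proteins and tissue bHLH factors, 4 fell and 1 rose. The muscle factors Myf6 (-1.84 ± 0.31, limma adjusted p = 0.0018), Myod1 (-1.30 ± 0.22, 0.00178) and Myog (-0.59 ± 0.14, 0.0115) fell, as did Hes1 (-0.82 ± 0.16, 0.0042), a Notch target. Twist1 (0.10 ± 0.13), Twist2 (0.25 ± 0.14), Tal1 (-0.37 ± 0.34) and Bhlhe40 (0.46 ± 0.16) did not pass. Lyl1, a factor of blood and endothelial cells named after its value was seen, rose (0.52 ± 0.13, 0.015). Without wild-type replicate 1 the calls of Myog, Hes1 and Lyl1 (0.34) ended; Lyl1 also lost it without hTNF replicate 2 or 3, and Myog without the 3 arrays of mixed sex-linked signal.

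Between the transgenic groups, limma called 0 of the 55 genes, and 5 had an unadjusted p under 0.05: Bmp5 (-0.49 ± 0.18), Hjv (-0.60 ± 0.24), Chrdl1 (-0.41 ± 0.15), Dlx5 (-0.35 ± 0.12) and Myf6 (-0.85 ± 0.28), with limma adjusted p of 0.607 to 0.648. In Sphk1-null hTNF joints against wild type, 24 of the 55 were called lower and 5 higher (median -0.28), against 23.8% and 19.1% of all genes.

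Tissue markers also differed between the groups, and their part in the differences was not tested; fewer cells of a type and less RNA per cell cannot be told apart in whole joints. Skeletal muscle markers, which stand beside Hjv, Fst, Myf6 and Myod1, averaged 12.97 to 13.29 log2 in hTNF joints and 14.25 on both wild-type arrays. Of these, 7 of 8 were called lower, and the marker counts below are counts of calls too. Adipocyte markers averaged 9.36 to 9.50 in hTNF joints and 11.66 to 11.79 in wild-type joints, with 6 of 6 tested lower (Plin1 had no tested probe set). Endothelial markers, beside Id1, Id3, Smad6 and Acvrl1, averaged 8.97 to 9.45 in hTNF joints and 9.85 to 10.02 in wild-type joints, with 7 of 8 lower, while Acvrl1 rose. Smooth muscle and pericyte markers averaged 10.32 to 10.53 in hTNF joints and 11.08 to 11.26 in wild-type joints, with 5 of 7 lower and 1 higher. Cartilage markers, beside Bmp4, Ihh and Dlx5, averaged 9.77 to 10.06 in hTNF joints and 10.70 to 10.86 in wild-type joints, with 4 of 6 lower. Osteoblast and osteocyte markers, beside Sost, averaged 9.23 to 9.64 in hTNF joints and 9.71 to 9.92 in wild-type joints, with 2 of 6 lower.

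Macrophage and monocyte markers, beside Id2, averaged 12.03 to 12.37 in hTNF joints and 10.17 to 10.21 in wild-type joints, with 7 of 7 higher, and fibroblast markers 13.13 to 13.28 in hTNF joints and 12.41 to 12.44 in wild-type joints, with 6 of 8 higher. Neutrophil markers separated the wild-type arrays (8.20 on replicate 1 and 11.81 on replicate 2), as Bmp4 did (9.34 and 8.55); none of the 7 was called. Between the transgenic groups no marker of any list was called. Endothelial markers averaged 9.42 to 9.60 in Sphk1-null hTNF joints and 8.97 to 9.45 in hTNF joints, so the ranges overlapped. The median difference of the 8 markers was 0.265 log2, while Id1 was lower in Sphk1-null hTNF joints. Against wild type, 3 of 8 endothelial markers were lower in Sphk1-null hTNF joints. The part of endothelial content in the Id1 difference between the transgenic groups was not tested.

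**Figure D5:**
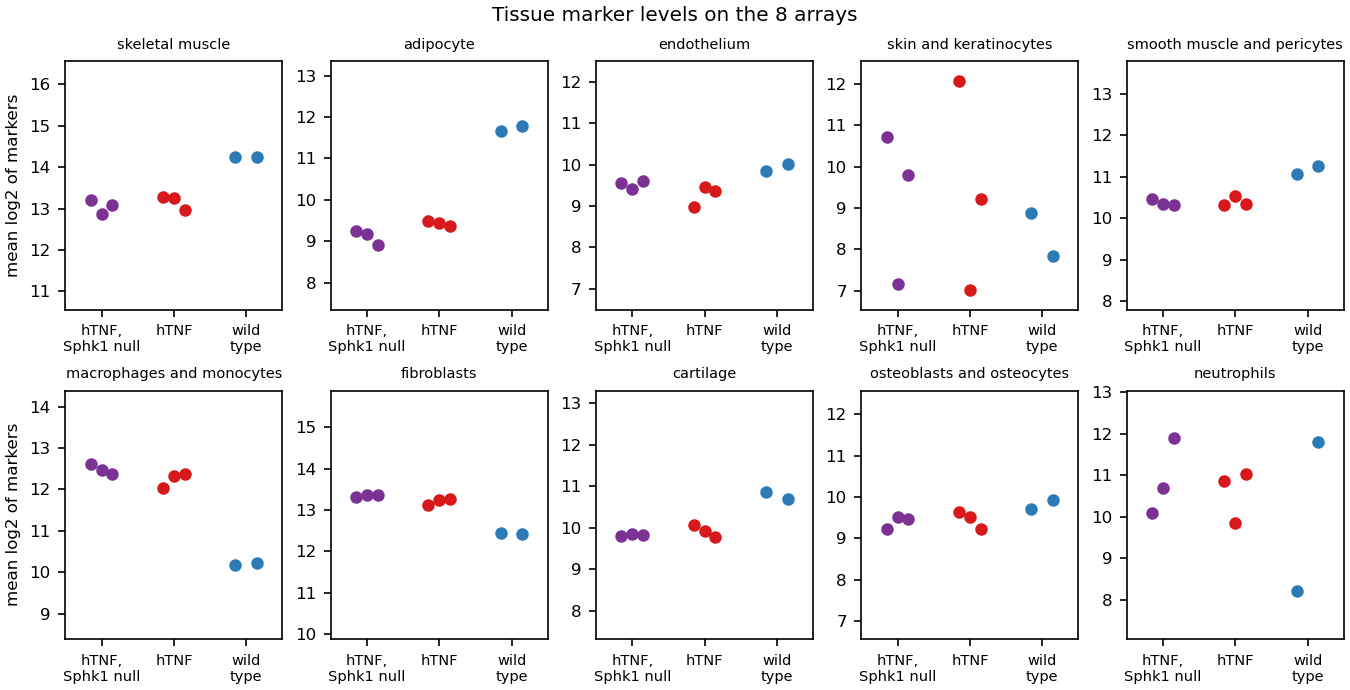
Mean log2 value of the tested markers of 10 tissue and cell types (y axis, each panel spanning 6 log2) by group (x axis), with 1 point per array. Muscle, fat, endothelial, smooth muscle and cartilage markers are lower on all transgenic arrays than on both wild-type arrays, macrophage and fibroblast markers are higher, and skin and neutrophil markers spread widely within groups.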

How the data were processed

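The authors deposited 1 table of log2 values for 45101 probe sets on 8 arrays. The software named for this step is Affymetrix Expression Console with RMA and MAS5, per the submitters' processing notes, which do not say by which method these values arose. RNA was extracted with TRIzol and columns, then labelled with biotin, per the labels' protocols. Summary values compress changes of very dim and very bright probe sets, and the number of arrays limits the precision.

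Gene names came from GEO's platform annotation and were updated by gene ID in a GRCm38.p6 table: 34945 had 1 gene, 932 several and 9160 none, and 64 were controls. Probe sets above the table's median (6.87) on at least 2 of 8 arrays were kept (24115). Limma 3.58.1 (R 4.3.3) fitted 1 mean per group to all 8 arrays, with an intensity trend and 5 residual degrees of freedom, across all probe sets, and p-values were adjusted by Benjamini-Hochberg over them. The fit was tested on simulated data. Each gene is represented by the brightest of the tested probe sets that carry no other gene.

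The members, lists and tests were chosen with earlier results of these data known. All members are named. Of each other list, up to 4 genes with the largest called difference are named by rule; any others were named after their values were seen. The 3 genes closest to each member have the smallest root mean square difference of centred profiles. Listed genes without a tested probe set are not analysed here. Alternatives were other filters, quantile normalization, an offset of 32, no trend, only the groups compared, a replicate block, skin markers as covariate, the mean of probe sets and leaving out each array. Omission of 3 arrays with mixed sex-linked signal was chosen after seeing the data. Fits that left 1 wild-type array assume that it varies like the other groups.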

Additional observations from a re-analysis of the deposited data

How the results depend on the processing

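All 7 members called in hTNF against wild type kept their direction in every alternative that gave a value. Bmp4 had no value with the filter at the 75th percentile. The alternatives use the arrays whose values were known when the members were picked, so nothing is read from the member calls kept. Of the 7, 3 (Id1, Id4 and Smad6) kept their call in all alternatives, and Id3 kept it in 7 of 18. Of the 27 other pathway genes called, all kept their direction and 13 their call in every alternative that gave a value; 1 of the 13, Atoh8, had no value with the filter at the 75th percentile. Leaving out 1 array at a time gave 3 to 7 called members in hTNF against wild type, and 4695 to 9313 probe sets; the lowest values came without wild-type replicate 1; the cause was not tested. Between the transgenic groups, the count of called probe sets was 2, and 0 to 3 with 1 array left out, 1 with the filter at the 75th percentile, 6 with quantile normalization and 0 without the 3 arrays of mixed sex-linked signal; the cause was not tested.

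Same-numbered arrays of different groups correlated in their deviations at -0.17 to 0.27. Of 8 arrays, 5 correlated best with an array of their own number. These values cannot settle whether the numbers pair the arrays, because the deviations of the 2 wild-type arrays are mirror images. Sphk1-null hTNF replicate 1, for example, correlated at 0.27 with wild-type replicate 1 and at -0.27 with wild-type replicate 2. With a replicate block, 6515 probe sets, 6 members and 26 other pathway genes were called in hTNF against wild type, 2, 0 and 0 in Sphk1-null hTNF against hTNF, and 7770, 6 and 29 in Sphk1-null hTNF against wild type. Groups of 2 and 3 arrays are too small for a test of single outlying arrays. Dim probe sets such as that of Grem1 limit what can be seen.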

Other observations

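Of the members' probe sets, 3 stayed below the filter on dim values. The Id2 probe set among them read 6.67, 6.01 and 6.24 log2 in Sphk1-null hTNF joints, 6.66, 6.59 and 6.75 in hTNF joints and 6.14 and 5.92 in wild-type joints, with all hTNF arrays above the wild-type arrays as for the brighter Id2 probe sets. The dim Smad7 probe set read 4.53 to 4.84 in Sphk1-null hTNF joints, 4.84 to 4.93 in hTNF joints and 4.87 to 4.96 in wild-type joints. The dim Bmpr2 probe set read 6.46 to 7.06 in Sphk1-null hTNF joints, 6.46 to 6.58 in hTNF joints and 6.63 to 6.77 in wild-type joints.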
